A study of Mus musculus with 15 samples.

Results

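The genes described here encode interleukins, tumour necrosis factor (TNF) family proteins, colony-stimulating factors and transforming growth factor-beta (TGF-beta) proteins, together with their receptors. They were taken by symbol from the deposited table, as every row that begins with Il and a digit, Tnf, Csf or Tgfb, with Il4i1 and Csf3r left out, which gave 56 of 754 genes. By their known products, 27 were ligands, 25 were receptor chains, 1 was a receptor antagonist (Il1rn) and 3 carried the prefix but were neither (Tnfaip3, Tnfaip6 and Tnfaip8). Each gene was counted with 1 NanoString nCounter probe from a myeloid innate immunity panel, a hybridisation assay that counts colour-coded probes on RNA without amplification, and the table held raw counts for 15 mouse libraries.

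All libraries came from bone marrow-derived macrophages (BMDMs) grown in M-CSF. One group was held for 4 days in 20 ng/mL MPLA, a Toll-like receptor 4 agonist that serves as the inflammatory (M1-like) standard (MPLA, 4 libraries). The suppressive (M2-like) standard was held for 4 days in 20 ng/mL IL-4 (IL4, 4 libraries). The last groups were IL-4-conditioned cells that were given nanoparticles for 1 h, either with IRF5 mRNA (IRF5-NP, 3 libraries, numbered 1, 2 and 4) or with eGFP mRNA as the control cargo (eGFP-NP, 4 libraries). The labels give 1 µg of nanoparticles, and the methods of the study give a different amount of mRNA. The methods add that IRF5 particles also carried mRNA for the kinase IKKβ and a portion of eGFP mRNA, and that the most strongly eGFP-positive cells were sorted and returned to a lower dose of IL-4 before RNA isolation, so that both nanoparticle groups differed from the standards in sorting as well as in particles. Nothing in the labels says which libraries came from separate cultures or animals, and the p-values therefore measure only the spread between these libraries.

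Cytokines of these families are secreted or membrane-bound signals that act at low abundance on matching receptor chains. Macrophages exposed to Toll-like receptor ligands are known to make inflammatory ligands such as TNF and IL-1, which act through NF-kappaB, and IL-6, which acts through STAT3, whereas IL-4 acts through its receptor and STAT6. M-CSF, encoded by Csf1, and its receptor, encoded by Csf1r, maintain macrophages, and fibroblast-like stromal cells are a well-known source of Csf1.

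Total gene counts ran from 1618914 to 1784833 in MPLA and from 1087549 to 1639968 in IL4. In the nanoparticle groups they ran from 738305 to 1524232 with the eGFP cargo and from 266169, in the shallow library IRF5-NP 4, to 1510011 with the IRF5 cargo. Background was set in each library at the mean plus 2 SD of its 8 negative control probes, which came to 19.7 to 34.9 counts. Libraries eGFP-NP 1 and 2 did not differ detectably beyond sampling noise (chi-square per degree of freedom 1.088, p = 0.0817) and were summed and counted as 1 sample, so 14 libraries entered the tests. A further 4 pairs were nearly identical but differed beyond sampling noise and were kept apart (1.365 to 2.561 per degree of freedom, against 41.4 to 1250 in the other 16 pairs). These were libraries 1 and 4 as well as libraries 2 and 3 of MPLA, eGFP-NP 3 and 4, and the first 2 IRF5-NP libraries. Of 11 macrophage markers in the table, 9 to 10 were above background in every library of each group and Aif1 was not above it in any. Stromal markers were also present. The mean of 7 stromal genes (Col1a2, Col3a1, Pdgfra, Pdgfrb, Fn1, Timp3 and Cdh11) was 12.5 to 12.7 log2 CPM in the MPLA libraries, 10.9, 11.9, 4.67 and 10.1 in IL4 1 to 4, 4.15, 4.00 and 10.95 in IRF5-NP 1, 2 and 4, and 4.02, 11.5 and 11.6 in eGFP-NP 1-2, 3 and 4. Summed over these 7 of 14 fixed markers, the level was 78747 to 94890 CPM in MPLA and 308 to 59765 CPM in IL4, and it spanned 110 to 42555 CPM with the eGFP cargo and 113 to 23349 CPM with the IRF5 cargo. Of 8 neutrophil markers, summing to 427 to 858 CPM in MPLA and to 107 to 276 CPM over the other groups, S100a9 and Ly6g were not above background in any group, and of 5 mast cell and basophil markers, Fcer1a, Kit and Cpa3 were not above it in any group, while none of 8 T cell markers was in the table. In bulk RNA, fewer cells of a type and less RNA per cell cannot be told apart.

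Many of these genes were at or under the detection limit of the assay. Of the 56, 20 were above background in all 15 libraries, 22 in some and 14 in none, a share of 25% without signal against 13.5% of all 754 genes. Ligands made up most of the undetected genes, with Il2, Il4, Il5, Il12a, Il12b, Il13, Il22, Il25, Il27 and Il33 above background nowhere, 10 of 27. Only Csf1, Tgfb1 and Tnf among the ligands were above background in every library. Receptors were detected more widely, with 14 of 25 above background throughout (Csf1r, Csf2ra, Il1r1, Il1rap, Il1rl1, Il3ra, Il4ra, Il10ra, Il17ra, Il21r, Tnfrsf1a, Tnfrsf1b, Tnfrsf11a and Tnfrsf12a) and 4 nowhere (Il5ra, Il18r1, Tnfrsf8 and Tnfrsf9). The genes above background in some libraries included Il1a and Il1b, Il6, Il15, Il18, Tnfsf4, Tnfsf9 and Tnfsf10 among ligands and Il6ra, Il15ra, Il27ra, Tgfbr3 and Tnfrsf14 among receptors.

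**Figure D1:**
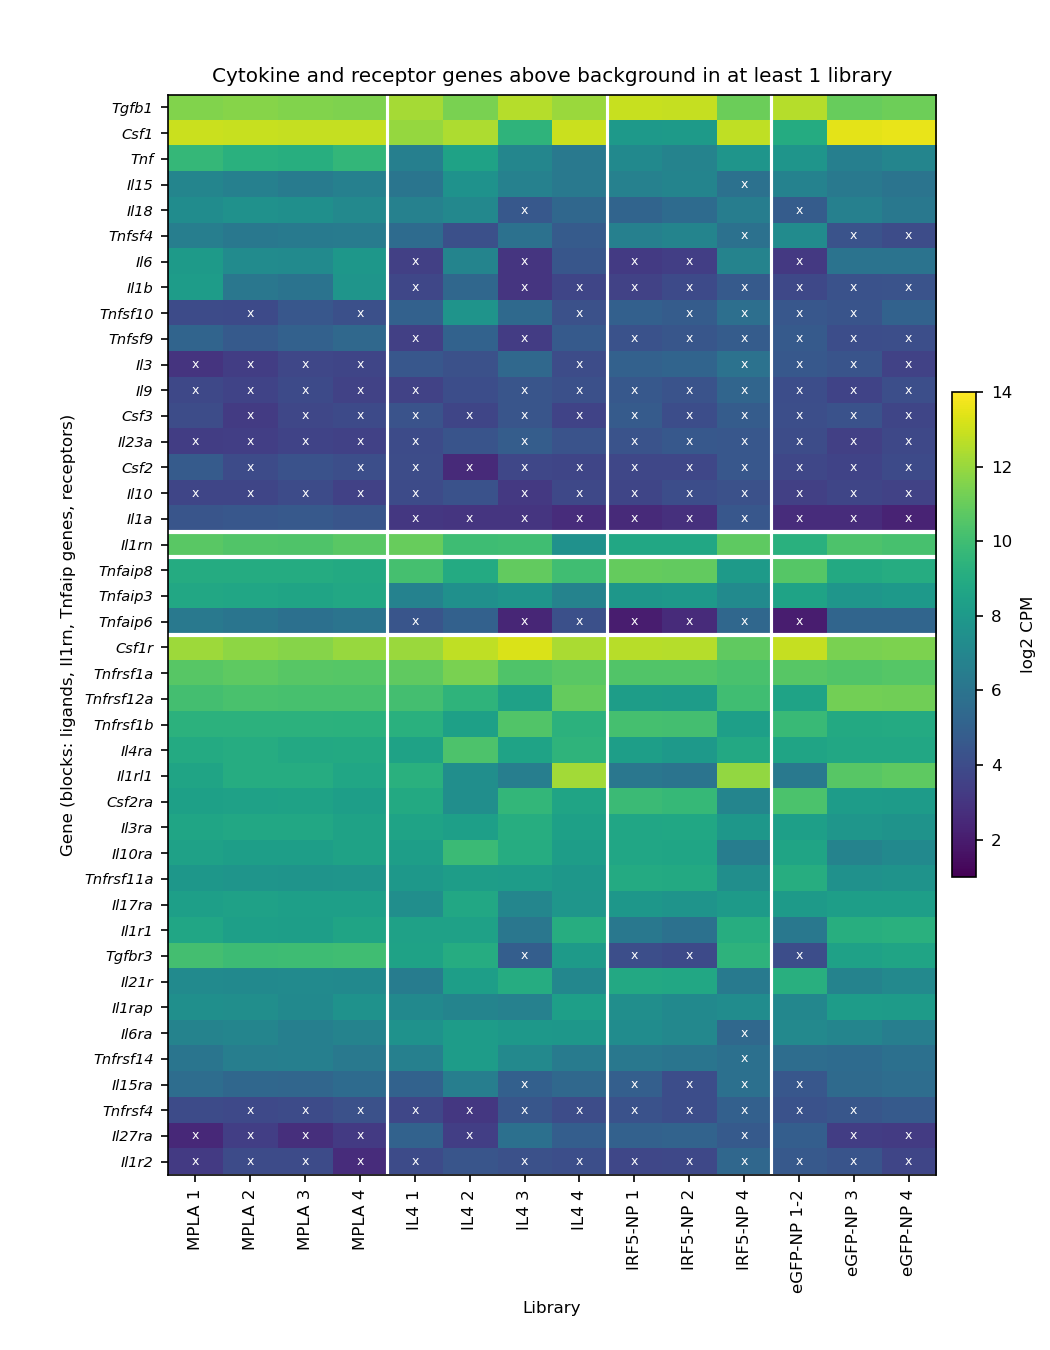
Log2 CPM (colour) of the 42 members above background in at least 1 library, with libraries in columns by group and genes in rows by class; x marks a library in which the gene was not above background (for eGFP-NP 1-2, in at least 1 of the summed libraries), and colours compare libraries within a row, since probes differ between genes. Tnf, Il1b and Il6 were highest in the 4 MPLA libraries, while Csf1, Il1r1 and Tgfbr3 were lowest in IL4 3, IRF5-NP 1 and 2 and eGFP-NP 1-2.

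The first comparison asked which cytokine genes separated the MPLA and IL4 standards. By edgeR's quasi-likelihood test with Benjamini-Hochberg adjustment over all 754 genes, 14 of 56 members (25%) were called at an adjusted p under 0.05, close to the 26.4% of all genes called in this comparison. Of these, 7 were higher in MPLA (12.5%, against 12.2% of all genes) and 7 were lower (12.5%, against 14.2%). The higher genes were the inflammatory ligands Il1b, Tnf, Il1a and Tnfsf4, the NF-kappaB feedback gene Tnfaip3, the matrix-binding protein gene Tnfaip6, and Il33. The lower genes were the receptors Il6ra, Il27ra and Il18r1, the ligands Il3, Il22 and Il23a, and Tnfaip8. The median log2 difference was -0.20 over the 56 members and -0.05 over all genes, and it was -0.14 over ligands and -0.37 over receptors. Groups did not overlap for 16 members (28.6%), against 37.3% of all genes.

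Tnf, the founding ligand of its family, gave 1518, 1050, 1065 and 1498 counts in MPLA 1 to 4 and 110, 504, 128 and 123 in IL4 1 to 4. On the log2 CPM scale these were 9.63, 9.25, 9.13 and 9.63 against 6.62, 8.51, 6.95 and 6.26. Every MPLA library lay above every IL4 library, and IL4 2 was the nearest IL4 library. The fitted log2 difference was 2.10 ± 0.50 (SE, n = 4 and 4, edgeR adjusted p = 0.0193), and 2.83 without IL4 2. Counts of Il1b, which encodes the inflammasome-processed cytokine IL-1β, were 546, 121, 115 and 418 in MPLA and 14, 55, 7 and 19 in IL4. MPLA 1 and 4 were thus well above MPLA 2 and 3, the split also seen in the near-identical pairs, and in IL4 the gene was above background in IL4 2 alone. Its fitted log2 difference was 3.18 ± 0.73 (SE, edgeR adjusted p = 0.0166). Without IL4 2 it was 3.94, and since no other IL4 library was above background, the gap there can be bounded only as at least 5.42-fold. Leaving out MPLA 1 or MPLA 4 took the calls of Tnf and Il1b away, with log2 differences of 2.02 and 2.03 for Tnf and 2.74 and 2.99 for Il1b.

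Il1a, which encodes the alarmin IL-1α, gave 38, 37, 44 and 38 counts in MPLA and 8, 9, 7 and 8 in IL4. The MPLA counts were above background in 4 of 4 libraries and the IL4 counts in 0 of 4. The fitted log2 difference was 1.77 ± 0.19 (SE, edgeR adjusted p = 0.00062), but the MPLA counts were so near the background of the IL4 libraries that the measured gap can be bounded only as at least 1.01-fold. Il33, another alarmin of the IL-1 family, gave 11, 17, 13 and 9 counts in MPLA and 1 count in each IL4 library. It was called (edgeR adjusted p = 0.00131) although no library had it above background, so no fold is given. In IL4 both IL-1 family genes were thus under the limit set by the negative controls, and Il1a in MPLA was only just above it.

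Il6, whose product is known for driving the acute-phase response, was not called in this comparison and is shown because its libraries were far apart. It gave 508, 268, 286 and 451 counts in MPLA and 11, 162, 7 and 34 in IL4. All MPLA libraries were above all IL4 libraries, and in IL4 it was above background in libraries 2 and 4. The fitted log2 difference was 2.41 ± 0.85 (SE, edgeR adjusted p = 0.0656). Tnfsf4, the OX40 ligand, gave 179, 125, 146 and 158 counts in MPLA against 52, 23, 59 and 41 in IL4. The groups did not overlap, and the log2 difference was 1.21 ± 0.37 (SE, edgeR adjusted p = 0.0444).

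Tnfaip3 encodes A20, a deubiquitinase that restrains NF-kappaB. Its counts were 861, 721, 742 and 850 in MPLA and 121, 258, 227 and 180 in IL4, with no overlap, and the log2 difference was 1.497 ± 0.263 (SE, edgeR adjusted p = 0.00657). Tnfaip6, which encodes the hyaluronan-binding protein TSG-6, gave 144, 111, 104 and 120 counts against 23, 44, 4 and 27, with a log2 difference of 1.83 ± 0.50 (SE, edgeR adjusted p = 0.0319). Tnfaip8 gave 960, 887, 981 and 889 counts in MPLA and 1303, 684, 1952 and 1678 in IL4, and IL4 2 overlapped the MPLA libraries in log2 CPM. It was lower in MPLA by the fit (log2 difference -1.15 ± 0.36, SE, edgeR adjusted p = 0.0475).

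**Figure D2:**
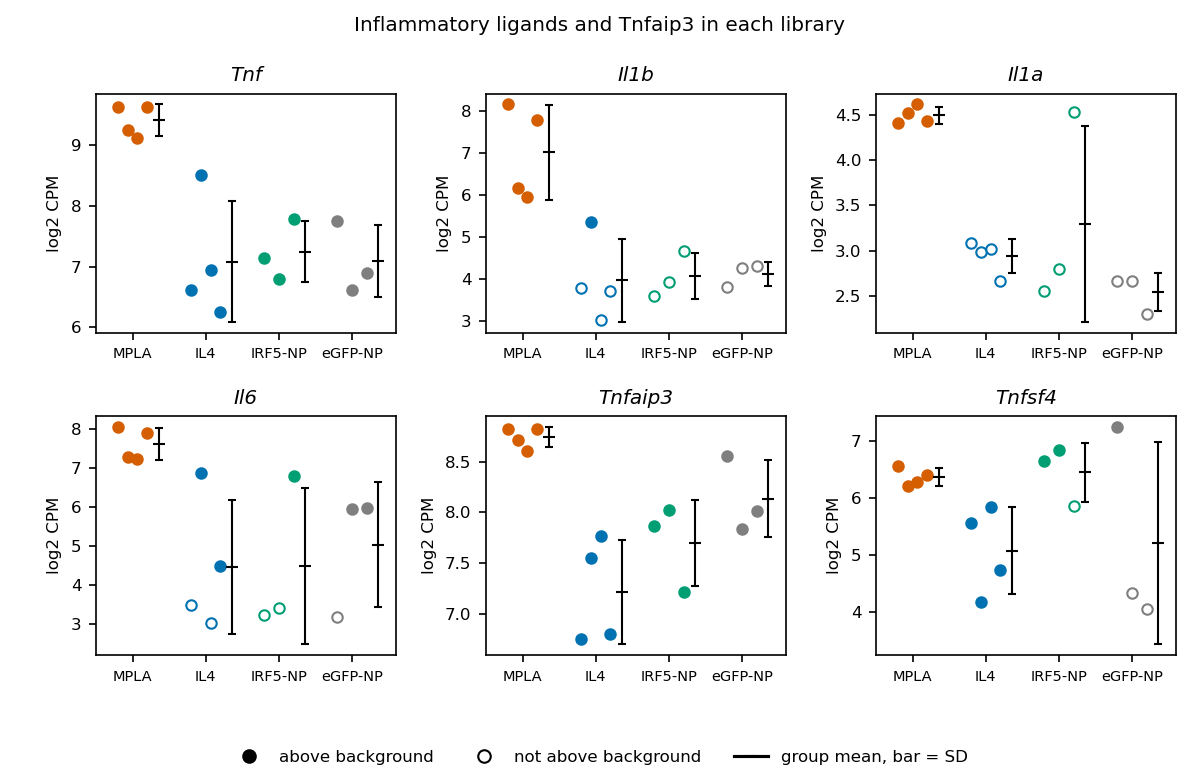
Log2 CPM of Tnf, Il1b, Il1a, Il6, Tnfaip3 and Tnfsf4 in 14 libraries by group; each point is 1 library, filled where the gene was above background, and the bar gives the group mean and SD (n = 4 for MPLA and IL4, n = 3 for the nanoparticle groups). Tnf in both nanoparticle groups lay in the range of the IL4 libraries, below all MPLA libraries. Il1b points of these groups, all under background, were drawn there as well, but in the shallow library IRF5-NP 4 Il1b has only an upper limit and could not be placed. The IRF5-NP 4 point for Il1a at 4.53 log2 CPM rests on 10 counts in that library.

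The stretch before the start site of a few of these genes is shown, because inflammatory ligands and Tnfaip3 are textbook targets of NF-kappaB and Tnfaip3 was the one member higher in MPLA whose window held its consensus. Sequences are the 250 bases upstream of RefSeq start sites on GRCm38.p6, in the direction of the gene. Of the 56 members, 42 had a window in the RefSeq table. The kappa B consensus, searched on both strands, was present in 7 of their 54 windows (13%) and in 7.25% of all 32851 windows, and the STAT motif (TTC and GAA with any 4 bases between them) in 11 of 54 (20.4%) and in 5.85% of all windows. Members with the kappa B consensus were Csf1, Il1r1, Il6, Tgfb1, Tnfaip3, Tnfrsf8 and Tnfrsf9, of which Tnfaip3 alone was called higher in MPLA. Capitals mark matches to the kappa B consensus. Tnfaip3 (chr10:19015411-19015660, minus strand, the more upstream of its listed start sites) has matches that begin 125 and 12 bases before the start site and Il6 (chr5:30012864-30013113, plus strand) has 1 match that begins 44 bases before it. The windows of Tnf (chr17:35202008-35202257, minus strand) and Il1b (chr2:129371140-129371389, minus strand) hold no match to these letters, which says nothing of sites elsewhere.
Tnfaip3: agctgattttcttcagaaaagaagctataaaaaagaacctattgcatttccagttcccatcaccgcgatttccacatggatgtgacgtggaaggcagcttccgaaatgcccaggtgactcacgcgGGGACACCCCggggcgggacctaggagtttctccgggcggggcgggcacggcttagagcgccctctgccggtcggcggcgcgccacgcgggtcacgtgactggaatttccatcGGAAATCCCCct
Il6: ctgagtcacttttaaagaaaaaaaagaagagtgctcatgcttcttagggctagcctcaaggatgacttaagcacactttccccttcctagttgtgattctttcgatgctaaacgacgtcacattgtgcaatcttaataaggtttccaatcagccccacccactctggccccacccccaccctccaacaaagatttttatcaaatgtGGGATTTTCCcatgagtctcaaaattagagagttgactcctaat
Tnf: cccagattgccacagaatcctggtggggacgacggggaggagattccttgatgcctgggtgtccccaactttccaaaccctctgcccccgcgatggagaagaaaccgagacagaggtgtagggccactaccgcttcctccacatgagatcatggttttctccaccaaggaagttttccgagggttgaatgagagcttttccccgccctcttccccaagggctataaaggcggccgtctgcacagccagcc
Il1b: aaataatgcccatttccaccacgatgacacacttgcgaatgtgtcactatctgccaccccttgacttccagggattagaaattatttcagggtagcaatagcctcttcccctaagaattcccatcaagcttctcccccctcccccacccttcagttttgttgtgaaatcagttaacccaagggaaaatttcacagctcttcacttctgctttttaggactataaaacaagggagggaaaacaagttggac

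Among receptors, Il6ra, the ligand-binding chain for IL-6, was the one called gene above background in every library of both standards. It gave 6.82, 6.93, 6.63 and 6.81 log2 CPM in MPLA and 7.64, 8.16, 7.94 and 7.88 in IL4. The groups did not overlap, and the log2 difference was -1.10 ± 0.19 (SE, edgeR adjusted p = 0.00653). Il27ra, a chain of the IL-27 receptor, gave 8, 16, 10 and 15 counts in MPLA, all under background, and 37, 13, 56 and 46 in IL4, above it in 3 of 4 libraries. It was called lower in MPLA (edgeR adjusted p = 0.0187), and since IL4 2 was under background as well, no fold is given. The ligands Il3 and Il23a were lower in MPLA with 12 to 23 and 16 to 21 counts against 24 to 42 and 16 to 31 in IL4 (edgeR adjusted p = 0.0364 and 0.0138), and were above background in 3 and 2 of the 4 IL4 libraries. Il18r1 and Il22 were called lower in MPLA with no library above background, at 9 to 18 against 16 to 23 counts and 3 to 10 against 8 to 12 counts. The remaining receptors were not called, among them Il4ra, the chain that binds IL-4, at 8.93 ± 0.08 log2 CPM in MPLA and 9.21 ± 0.88 in IL4 (SD, n = 4 and 4, edgeR adjusted p = 0.439). Csf1r was 11.9 ± 0.22 and 12.6 ± 0.52 log2 CPM (SD, edgeR adjusted p = 0.0844), and the TNF receptor gene Tnfrsf1b was 9.35 ± 0.03 and 9.36 ± 0.86 (edgeR adjusted p = 0.773).

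The stromal list was higher in all MPLA libraries than in any IL4 library, and its part in these calls was not tested beyond a covariate fit. With the stromal mean as a covariate, 5 members (8.93%, against 14.5% of all genes) were called (Il1a, Il33, Il6ra, Tnfaip3 and Tnfsf4). In that fit the log2 differences of genes no longer called included 0.86 for Tnfaip6, 1.71 for Tnf and 2.46 for Il1b, with -0.48 for Tnfaip8. With each near-identical pair merged, 2 members were called (Il1a and Il33; 3.57%, against 2.65% of all genes). Leaving out 1 library moved the count from 14 to 4 without MPLA 1, 8 without MPLA 2, 7 without MPLA 3, 6 without MPLA 4, 8 without IL4 1 and 18 without IL4 2, and Il1a, Il33, Il6ra and Tnfaip3 kept their call each time. The share of all genes called moved with it, to 9.81%, 13%, 14.5%, 10.7%, 19.1% and 39.1% in these fits, against 7.14%, 14.3%, 12.5%, 10.7%, 14.3% and 32.1% of members. Scaled on 18 housekeeping genes, which moved the median of all genes by -0.32, 3 members were called higher and 8 lower in place of 7 and 7 (19.6% of members, against 23.3% of all genes). On this scale Tnf, Tnfaip3, Tnfaip6 and Tnfsf4 were no longer called. Of 25 signalling genes downstream of these receptors in the table, 6 were higher in MPLA (Traf1, Traf2, Ripk2, Nfkbia, Nfkbiz and Stat4) and 2 were lower (Socs1 and Socs2), shares of 24% and 8% against the 12.2% and 14.2% of all genes given above. Nfkbiz, an inducible NF-kappaB cofactor, had a log2 difference of 2.55 ± 0.74 (SE, edgeR adjusted p = 0.0364), the NF-kappaB inhibitor gene Nfkbia 1.17 ± 0.29 (adjusted p = 0.0225) and Traf1, a TNF receptor adaptor, 1.42 ± 0.33 (adjusted p = 0.0187). Socs1 and Socs2, inhibitors of cytokine receptor signalling, had differences of -2.01 ± 0.39 (SE, edgeR adjusted p = 0.00918) and -1.60 ± 0.23 (adjusted p = 0.00261). The median over the 25 genes was 0.25.

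The comparison of IRF5-NP with IL4 asked which cytokine genes differed in IL-4-conditioned cells given IRF5 particles. It cannot separate the cargo from the particles, the sorting or the lower dose of IL-4 afterwards. By edgeR 0 of 56 members were called, as were 0% of all 754 genes, and 3 members had an unadjusted p under 0.05. The other tools also called 0 members, namely DESeq2 (0 of the 54 members it tested, against 2.61% of all genes), limma and the methods' t-test, the last with 2 members at an unadjusted p under 0.05. Groups did not overlap for 5 members (8.93%), against 8.75% of all genes. The smallest p-values belonged to Tnfrsf14, the receptor for LIGHT, at 6.19, 6.04 and 5.80 log2 CPM in IRF5-NP 1, 2 and 4 and 6.65, 8.17, 7.11 and 6.39 in IL4 (log2 difference -1.36 ± 0.52, SE, edgeR adjusted p = 0.615). The value in IRF5-NP 4 was 25 counts, under the background of 32.4 there, and so only an upper limit, and without IL4 2 the difference was -0.74. Il6ra gave 7.32, 7.09 and 5.42 log2 CPM in IRF5-NP, under the IL4 range of 7.64 to 8.16 in all 3 libraries, but its value in IRF5-NP 4 was 19 counts and under background (log2 difference -1.23 ± 0.49, SE, edgeR adjusted p = 0.665). Tnfsf4 gave 6.66 and 6.84 log2 CPM in IRF5-NP 1 and 2, above the IL4 range of 4.17 to 5.85, while IRF5-NP 4 was again under background and could not be placed (log2 difference 1.22 ± 0.50, SE, edgeR adjusted p = 0.69).

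Tnf and Il6 in IRF5-NP lay within the range of the IL4 libraries, and so did Il1b in IRF5-NP 1 and 2. In the shallow library IRF5-NP 4, Il1b was under background and could not be placed. Tnf gave 159, 119 and 101 counts, or 7.15, 6.80 and 7.79 log2 CPM, inside the IL4 range of 6.26 to 8.51 (log2 difference -0.17 ± 0.63, SE, edgeR adjusted p = 0.946). Il1b gave 12, 15 and 11 counts and Il1a 5, 6 and 10 counts, none above background. Il33 was at 1, 1 and 3 counts. Il6 was under background in IRF5-NP 1 and 2, at 9 and 10 counts, and gave 51 counts or 6.81 log2 CPM in IRF5-NP 4, so that its range over the 3 libraries, 3.23 to 6.81, was nearly as wide as that of the IL4 libraries. The SE of 1.30 around its fitted log2 difference of 0.02 leaves a wide range of differences that this comparison could not detect (edgeR adjusted p = 0.995).

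For the control particles, 0 of 56 members differed between eGFP-NP and IL4 by edgeR, as did 0% of all genes, with 4 members at an unadjusted p under 0.05. DESeq2 called 3 (Il33, Il6ra and Tnfrsf14; 5.56% of the 54 members it tested, against 7.27% of all genes), while limma and the methods' t-test called 0, the latter with 4 at an unadjusted p under 0.05. Groups did not overlap for 6 members (10.7%), against 11.9% of all genes. Tnfrsf14 gave 5.63, 5.54 and 5.80 log2 CPM in eGFP-NP 1-2, 3 and 4, under all IL4 libraries (log2 difference -1.75 ± 0.52, SE, edgeR adjusted p = 0.285, and -1.11 without IL4 2). Il6ra gave 7.14, 6.94 and 6.57, also under all IL4 libraries (log2 difference -1.16 ± 0.33, SE, edgeR adjusted p = 0.285). Il33 gave 3, 10, 14 and 1 counts in eGFP-NP 1, 2, 3 and 4, nowhere above background. The IRF5-NP values of these receptors above were compared with the same IL4 libraries.

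Tnf in eGFP-NP was 7.76, 6.62 and 6.90 log2 CPM, inside the IL4 range (log2 difference -0.32 ± 0.63, SE, edgeR adjusted p = 0.91). Il1b gave 19, 9, 18 and 16 counts and Il1a 7, 4, 5 and 3, all under background. Tnfaip3 gave 8.56, 7.84 and 8.01 log2 CPM in eGFP-NP, above the IL4 range of 6.76 to 7.77, and 7.87, 8.02 and 7.22 in IRF5-NP, which overlapped it. Neither was called (edgeR adjusted p = 0.486 and 0.868).

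Between the 2 cargoes, 0 of 56 members were called by edgeR, as were 0% of all genes. An unadjusted p under 0.05 was found for 2 members, and for 4 by the methods' t-test, and limma also called 0. DESeq2 gave an adjusted p for only 27 of the 56 members, of which it called 0 (against 1.41% of the genes it tested). Groups did not overlap for 7 members (12.5%), against 14.7% of all genes. The smallest p-values were those of Tnfrsf9, Il3 and Il23a, all with positive fitted differences, all near background and all without an adjusted p by DESeq2. Tnfrsf9, the receptor 4-1BB, gave 17, 18 and 14 counts in IRF5-NP and 9, 10, 8 and 7 in eGFP-NP, none above background (edgeR adjusted p = 0.8291). Il3 gave 35, 38 and 27 counts against 26, 24, 20 and 9, above background in IRF5-NP 1 and 2 only (edgeR adjusted p = 0.8291). Il23a gave 21, 24 and 10 counts against 16, 17, 10 and 11 (edgeR adjusted p = 0.8291). The median log2 difference was 0.26 over members and 0.57 over ligands, against 0.10 over all genes, and the ligand values include 10 genes with no library above background. In the shallow library IRF5-NP 4 such genes have only a high upper limit, whose part in these medians was not tested.

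Libraries with the same number deviated together in these groups (correlations of 0.818 to 0.823). Near-identical libraries keep this from showing a pairing by number, but the same-numbered differences are also given. Of the 20 members above background in all 6 libraries, the 3 pairs had one sign for 11 (55%), with 1 higher in IRF5-NP (Il3ra) and 10 lower, against 48.1% of the 374 genes measured so, with 33 higher and 147 lower. Csf1 was lower in IRF5-NP than in the eGFP-NP library of the same number in 3 of 3 pairs, by log2 differences of -0.99, -0.89 and -0.82 for numbers 1, 2 and 4. Csf1r was lower in 3 of 3 pairs as well, with -0.24, -0.32 and -0.64, and so was Tnfaip3, with -0.66, -0.56 and -0.79. Il3ra, the IL-3 binding chain, was higher, with 0.34, 0.41 and 0.21. For Tnf the differences were -0.54, -1.02 and 0.89, with no common direction. Numbers 1 and 2 are near-identical libraries within each group, so these are hardly 3 separate observations, and with the number as a block 0 members were called.

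Against the MPLA standard, 8 of 56 members (14.3%) differed in IRF5-NP, against 24.4% of all genes. Of these, 3 were lower (5.36%, against 12.9% of all genes) and 5 were higher (8.93%, against 11.5%). The lower genes were Il1b, Tnf and Tnfaip3. Tnf was at 7.24 ± 0.50 log2 CPM in IRF5-NP and 9.41 ± 0.26 in MPLA (SD, n = 3 and 4), a log2 difference of -2.003 ± 0.360 (SE, edgeR adjusted p = 0.0129). Il1b, with no IRF5-NP library above background, was at least 3.36-fold lower than in MPLA, where the bound sets the MPLA mean against the background level of the IRF5-NP libraries (fitted log2 difference -3.26 ± 0.78, SE, edgeR adjusted p = 0.0282). Tnfaip3 was lower by a log2 difference of -0.93 ± 0.18 (SE, edgeR adjusted p = 0.0148). Il1a was not called (edgeR adjusted p = 0.182) and was above background in no IRF5-NP library, so no fold is given.

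The 5 genes higher in IRF5-NP than in MPLA were all close to background. Il27ra gave 36, 37 and 11 counts against 8 to 16 in MPLA, above background in IRF5-NP 1 and 2 (edgeR adjusted p = 0.00597). Il3 gave 35, 38 and 27 counts against 12 to 23, also above background in those 2 libraries (edgeR adjusted p = 0.0129). Il23a, Il27 and Il9 were not above background in any library of either group (edgeR adjusted p = 0.0136, 0.0219 and 0.0469). Groups did not overlap for 24 members (42.9%), against 47.6% of all genes, and the median log2 difference was 0.29 over members and 0.07 over all genes.

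In eGFP-NP, 6 of 56 members (10.7%) differed from MPLA, against 19.6% of all genes, and these share their MPLA libraries with the IRF5-NP comparison. Of them 5 were lower (8.93%, against 12.5% of all genes) and 1 was higher (1.79%, against 7.16%). Tnf was at 7.09 ± 0.59 log2 CPM (SD, n = 3) with a log2 difference of -2.31 ± 0.33 (SE, edgeR adjusted p = 0.00443). Il1b, under background in every eGFP-NP library, was at least 4.92-fold lower than in MPLA (fitted log2 difference -3.37 ± 0.70, SE, edgeR adjusted p = 0.0186). Il1a was lower too, with 3 to 7 counts against 37 to 44 (edgeR adjusted p = 0.000451). The receptors Il3ra and Tnfrsf14 were lower by log2 differences of -0.76 ± 0.20 and -0.79 ± 0.19 (SE, edgeR adjusted p = 0.0427 and 0.031). Il18r1 was higher, with no library above background (edgeR adjusted p = 0.042). Groups did not overlap for 17 members (30.4%), against 40.2% of all genes, and the median log2 difference was 0.10 over members and 0.06 over all genes.

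**Figure D3:**
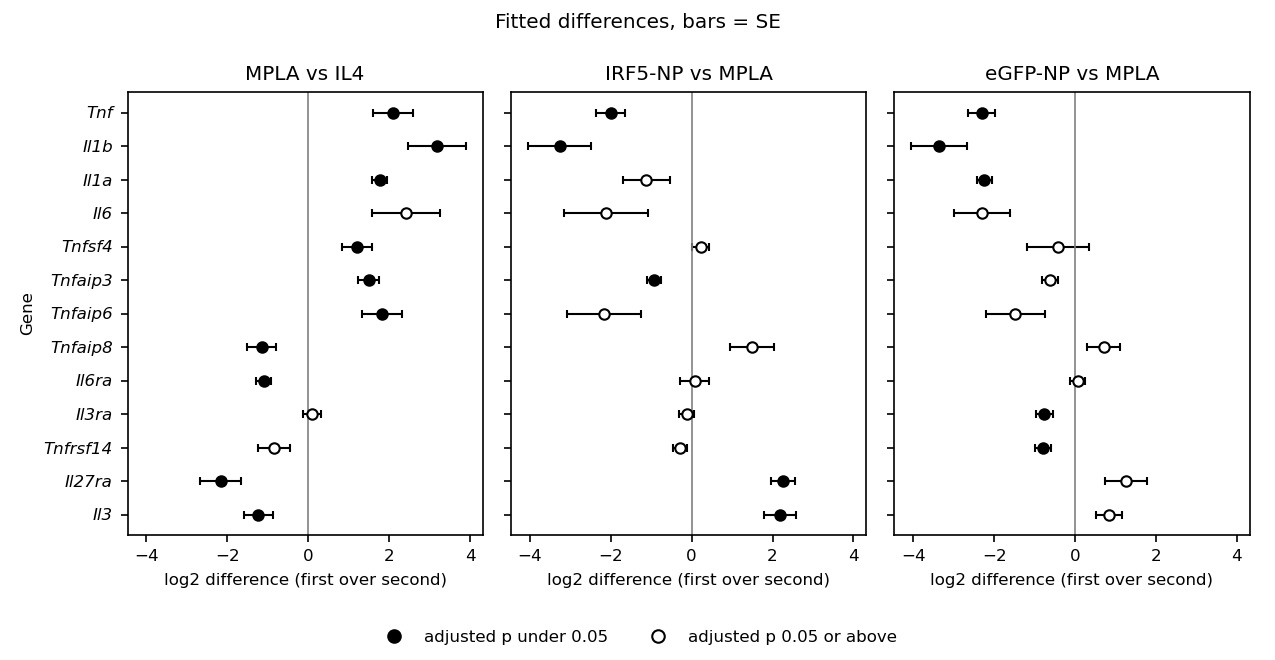
Fitted log2 difference (x axis, first group over second, bars are SE) of 13 named members in the comparisons of MPLA with IL4, IRF5-NP with MPLA and eGFP-NP with MPLA; filled points had an edgeR adjusted p under 0.05. Tnf and Il1b were called in all 3 panels, higher in MPLA each time, and the MPLA libraries are shared by the panels.

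Leaving out MPLA 1 or MPLA 4 moved the IRF5-NP count from 8 to 5 and 4. Among the IRF5-NP libraries, the count fell to 3 when number 1 was left out and to 4 when number 2 was, and it was 38 with number 4 left out (67.9%, against 75.1% of all genes in that fit). In the fits with the lower counts, 5.36% to 8.93% of members and 7.29% to 9.81% of all genes were called. Il27ra and Il3 were called each time, whereas Il1b lost its call without MPLA 1, MPLA 4 or either of the first 2 IRF5-NP libraries, Tnfaip3 without MPLA 1, MPLA 4 or IRF5-NP 1, and Tnf without IRF5-NP 1, which left 3 members higher and 0 lower. With the replicate number as a block none of the 8 was called. A single library moved the eGFP-NP count from 6 to 4 without MPLA 1, 3 without MPLA 2 or MPLA 3, 2 without MPLA 4, 25 without eGFP-NP 1-2 (44.6%, against 56.8% of all genes) and 3 without eGFP-NP 3 or eGFP-NP 4, with Il1a and Tnf called each time. The fits with 2 to 4 members called had 3.57% to 7.14% of members and 9.81% to 13.5% of all genes. The libraries whose absence raised the counts were those whose stromal mean stood apart from the rest of their group (10.95 in IRF5-NP 4 and 4.02 in eGFP-NP 1-2). Without them each nanoparticle group held only a near-identical pair (IRF5-NP 1 and 2, or eGFP-NP 3 and 4), and IRF5-NP 4 was also the shallow library. Which of these raised the counts was not tested. With the stromal mean as a covariate 34 and 26 members were called (60.7% and 46.4%, against 61.7% and 55.3% of all genes). With the covariate the IRF5-NP difference from MPLA was -1.10 for Tnf, still called, and -2.28 for Il1b, no longer called. The part of the stromal list in the differences was not tested otherwise. With near-identical pairs merged, 0 members were called in either comparison, as were 0% of all genes. On the housekeeping scale the split was 8 higher and 3 lower for IRF5-NP (19.6% of members, against 27.7% of all genes). For eGFP-NP it was 0 higher and 5 lower (8.93%, against 19.2%). With negative controls subtracted, the IRF5-NP split turned to 2 higher and 6 lower (14.3% of members, against 14.5% of all genes), and Il23a, Il27, Il27ra and Il9 were no longer called. Of the 25 signalling genes, 8 were lower in IRF5-NP and 9 in eGFP-NP than in MPLA (32% and 36%, against 12.9% and 12.5% of all genes) and 0 higher (against 11.5% and 7.16%), and 0 were called in the 3 comparisons without MPLA. Traf1 was lower by log2 differences of -1.88 ± 0.38 in IRF5-NP and -2.82 ± 0.29 in eGFP-NP (SE, edgeR adjusted p = 0.018 and 0.00124).

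Several abundant members varied widely within the IL4 and nanoparticle groups. Csf1 gave 11.9, 12.4, 9.47 and 12.95 log2 CPM in IL4 1 to 4, 7.999, 8.07 and 12.7 in IRF5-NP 1, 2 and 4, and 8.98, 13.5 and 13.6 in eGFP-NP 1-2, 3 and 4, whereas MPLA stood at 12.8 to 12.9. Its low libraries were those with the stromal list at 4.00 to 4.67 log2 CPM. Tgfbr3, which encodes the co-receptor betaglycan, gave 8.49, 9.02, 4.86 and 8.10 in IL4, 4.12, 3.93 and 9.39 in IRF5-NP and 4.05, 8.45 and 8.61 in eGFP-NP. In those same 4 libraries it was under background. The IL-1 receptor gene Il1r1 gave 8.44, 8.45, 6.13 and 9.11 log2 CPM in IL4, 6.22, 5.83 and 9.12 in IRF5-NP and 6.18, 9.16 and 9.27 in eGFP-NP, low again in the same libraries.

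Other members ran the opposite way. Csf2ra, the GM-CSF receptor chain, was 8.88, 7.41, 9.60 and 8.61 log2 CPM in IL4, 9.88, 9.69 and 6.92 in IRF5-NP and 10.3, 8.17 and 8.14 in eGFP-NP. Its highest value within each of these groups fell in a library with low stromal genes. Tnfaip8 was 10.9 in IL4 3, 10.9 in IRF5-NP 1 and 2 and 10.6 in eGFP-NP 1-2, against 8.10 to 10.2 in the rest of those groups. Csf1r was 13.2 in IL4 3 and 12.9 in eGFP-NP 1-2, the highest of their groups, and 10.8 in IRF5-NP 4, the lowest of all libraries. Tnfsf4 in eGFP-NP gave 7.25 in 1-2 against 4.32 and 4.04 in 3 and 4. That these genes and the stromal list move together is a description over 14 libraries that fall into separate clusters and share near-identical pairs, and no correlation is given.

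**Figure D4:**
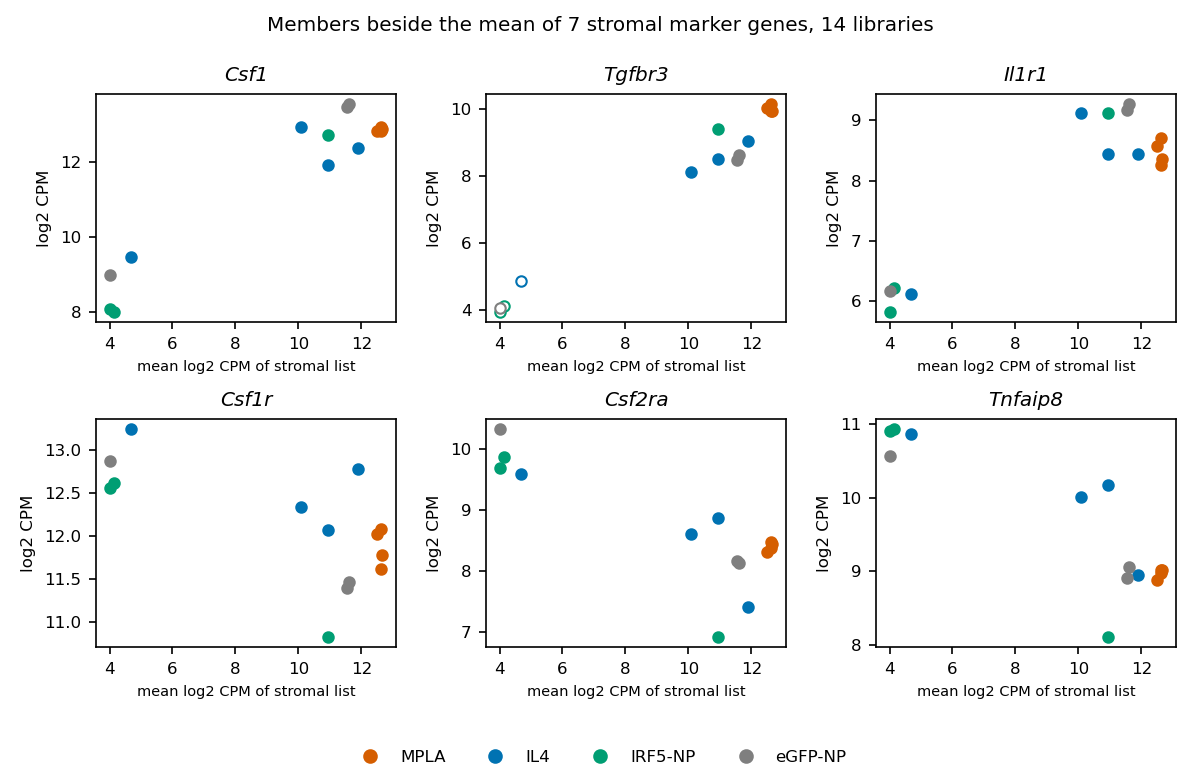
Log2 CPM of Csf1, Tgfbr3, Il1r1, Csf1r, Csf2ra and Tnfaip8 (y axes) beside the mean log2 CPM of 7 stromal marker genes (x axis) in 14 libraries coloured by group; open points were not above background. The libraries with a stromal mean of 4.00 to 4.67 had the lowest Csf1, Tgfbr3 and Il1r1 and high Csf1r, Csf2ra and Tnfaip8.

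Il1rl1, the receptor for IL-33, varied most within IL4, with 9.26, 7.40, 6.55 and 12.2 log2 CPM in libraries 1 to 4, and was 6.17, 6.02 and 11.9 in IRF5-NP and 6.26, 10.6 and 10.8 in eGFP-NP. In MPLA it was 8.57 to 9.06. Its fitted log2 difference between MPLA and IL4 was -1.60 ± 1.10 (SE, edgeR adjusted p = 0.308), although the means of the log2 values were 8.84 and 8.85. Without IL4 4, which held 7637 counts, the sign turned, to 0.67 ± 0.61 (SE, edgeR adjusted p = 0.434). Il1rn, the IL-1 receptor antagonist, gave 2322, 1361, 1096 and 314 counts in IL4 1 to 4, lowest in the library where Il1rl1 was highest. Its level was 10.4 to 10.7 log2 CPM in MPLA, 8.78, 8.82 and 10.8 in IRF5-NP and 9.24, 10.4 and 10.2 in eGFP-NP, and was called in none of the comparisons.

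IL4 2 differed from the other IL4 libraries in several members at once. It had the highest IL4 values of Tnf (8.51 log2 CPM), Il1b (5.36), Il6 (6.88), Il10ra (9.88), Il4ra (10.4), Il17ra (8.78) and Tnfrsf14 (8.17). Tnfsf10, which encodes the death ligand TRAIL, gave 290 counts in IL4 2 against 28 to 44 in the other IL4 libraries and 20 to 41 in all other libraries. Its stromal mean of 11.9 was the highest of the group, and its part in these values was not tested. Tgfb1, the TGF-beta ligand, was among the steadiest in MPLA, at 11.5 to 11.6 log2 CPM, and ranged from 11.4 to 12.5 in IL4. It spanned 11.1 to 12.9 with the IRF5 cargo and 10.98 to 12.5 with the eGFP cargo. The TNF receptor gene Tnfrsf1a kept a narrow range in all groups, from 10.6 to 10.8 in MPLA and from 10.4 to 11.4 in IL4, and from 10.3 to 10.6 over the nanoparticle libraries.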

How the data were processed

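Total RNA of 15 BMDM libraries was measured with the NanoString nCounter myeloid panel. Per the methods of the study, raw data were quality-checked, scaled to housekeeping genes and log2-transformed, but the deposited table holds the authors' raw counts of 754 genes, 6 positive and 8 negative controls, and these counts were used. No lane or cartridge is given in the sources used here, so no assay batch was tested.

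Groups were compared with edgeR 4.0.16 (R 4.3.3; TMM scaling, glmQLFit and glmQLFTest, 2 groups at a time, no filter), two-sided, with Benjamini-Hochberg adjustment over 754 genes and calls at an adjusted p under 0.05. Differences are log2, and SE is the log2 difference over the square root of F. Log2 CPM used TMM scaling and a prior count of 2. The script was tested on simulated independent libraries with a common dispersion for all genes. That does not show how the test behaves with near-identical libraries or widely spread groups. "At least" folds set the mean log2 CPM of the brighter group against the higher of background and value in each library of the dimmer group. Numbers 1, 2 and 4 pair IRF5-NP with eGFP-NP by the data alone (every same-number correlation over 0.1); the labels do not say why. Alternatives were DESeq2 1.42.0, its size factors, 18 housekeeping genes, limma 3.58.1 on log2(value + 1), the methods' t-test, a low-count filter, all groups in one fit, a replicate block, unmerged and further merged libraries, a stromal covariate, subtracted negative controls and each library left out.

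Members and gene lists were chosen with earlier results of these data known. Named with values were Il1a, Il33, every member called anywhere, and the 3 smallest p-values where fewer than 3 were called. Il6, Il10ra, Il17ra, Csf1, Csf1r, Csf2ra, Tgfbr3, Il1r1, Il1rl1, Il1rn, Il4ra, Tgfb1, Tnfsf10 and the TNF receptor genes were added after their values were seen. All 56 symbols matched GRCm38.p6, and sequences come from RefSeq.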

Additional observations from a re-analysis of the deposited data

Results flagged for a closer look

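In a group of 4, 1 library stood far from the others by Dixon's test in 1 of the 112 group and gene combinations examined (each of 56 genes in MPLA and in IL4), where chance alone marks about 1 in 20. Tnfrsf9, which encodes the receptor 4-1BB, was at 4.996 log2 CPM in IL4 3 and at 3.48 to 3.71 in the other IL4 libraries. The value rests on 32 counts, under the background of 34.9 counts in that library, and the stromal mean of IL4 3 was 4.67 log2 CPM, the lowest of the IL4 libraries. The part of either in the value was not tested.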

How the results depend on the processing

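With other settings, the count of members called moved mainly in the comparisons with MPLA. For MPLA against IL4, 14 became 1 and 8 by the methods' t-test with Benjamini-Yekutieli and Benjamini-Hochberg adjustment (1.79% and 14.3% of members, against 2.52% and 17.4% of all genes), 2 with near-identical pairs merged, 5 with the stromal mean as a covariate, 6 with negative controls subtracted (added after the data were seen; 10.7%, against 16.6%) and 4 to 18 with 1 library left out. For IRF5-NP against MPLA, 8 became 25 by DESeq2 (45.5%, against 51.6% of all genes) and 13 by limma on housekeeping-scaled log2 values (23.2%, against 28.1%). The count was 0 by the methods' t-test with Benjamini-Yekutieli adjustment (against 2.65% of all genes) and 0 with pairs merged (against 0%). It was 34 with the stromal covariate and 3 to 38 with 1 library left out. For eGFP-NP against MPLA, 6 became 11 by DESeq2 (20%, against 30.7%) and 1 by the t-test with Benjamini-Yekutieli adjustment (1.79%, against 6.5%). The count was 3 with all groups in one fit (5.36%, against 6.63%) and 0 with pairs merged (against 0% of all genes). It was 26 with the stromal covariate and 2 to 25 with 1 library left out. For eGFP-NP against IL4, 0 became 3 by DESeq2 and 1 (Il33) with pairs merged, and 0 with 1 library left out. IRF5-NP against IL4 and IRF5-NP against eGFP-NP gave 0 under each alternative run, but in the latter DESeq2 tested only 27 of 56 members; of all genes, DESeq2 called 2.61% and 1.41%, and the stromal covariate 2.12% in the latter. Merging and leaving out libraries reduce the number of samples, and for the other settings the cause was not tested.

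With the replicate number as a block, 8 members were called between MPLA and IL4, 0 between IRF5-NP and MPLA and 3 between eGFP-NP and MPLA (14.3%, 0% and 5.36%, against 12.6%, 0% and 10.7% of all genes). In these comparisons the numbers do not pair the samples, since 2 of 8, 2 of 7 and 0 of 8 libraries correlated best with their own number. Between IRF5-NP and eGFP-NP, where 5 of 7 libraries did, and in the remaining comparisons the block changed no call.

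Over 37 single-gene results and 721 alternatives, 510 kept direction and side of the threshold, 207 called values lost their call and 4 gained one (in eGFP-NP against IL4), and 0 changed direction. The 510 include results of the comparisons without MPLA that were not called and stayed so, and thus overstate how stable the calls were. Il1rl1 between MPLA and IL4, not among these 37, turned sign without IL4 4. None of the called genes kept its call under every alternative. Il22 (MPLA against IL4) and Il33 (eGFP-NP against IL4) had no counts left once negative controls were subtracted and gave no value. Counts near 20 to 35 are at background, which in IRF5-NP 4 equals 122 CPM, so a member under it there has only an upper limit.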
